A study of Astyanax mexicanus with 36 samples.

Results

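Oocytes of the Mexican tetra, Astyanax mexicanus, were profiled by bulk total RNA sequencing in Pachón cavefish and in surface fish at 2 neighbouring sizes, labelled 100_300um and 40_100um. The growth step of a population is the log2 change at 100_300um over 40_100um, and the comparison described here is the Pachón step minus the surface step. It uses 12 of the study's 36 libraries, 3 each of Pachón 100_300um, Pachón 40_100um, surface 100_300um and surface 40_100um taken by their labels. All 4 groups are wild-type, untreated fish of about 520 days, and the oocytes were taken from the right ovary. Nothing in the labels tells if a group's 3 libraries are of different fish; a p-value here reflects only how far the libraries vary, and that variation may be technical. Libraries of Molino cavefish at the same 2 sizes, and of Pachón and surface fish at 300um, served only as data that the comparison did not use.

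A fish oocyte grows inside a follicle, wrapped by granulosa cells and then by theca cells, blood vessels and connective tissue. The growing oocyte transcribes and stores maternal RNA, builds the egg coat and stockpiles ribosomes, while granulosa and theca cells respond to gonadotropins and make steroids. Pachón fish are an eyeless, depigmented cave form of the species that lives with scarce food. A difference between 2 growth steps can come from the smaller size, the larger size or both, so the levels of all 4 groups are given below.

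Gene reads ranged from 5.95 to 9.35 M per library, and 59.1 to 68.8% of the reads of a library were assigned to genes. The 59.1% was surface 100_300um replicate 1, and the next lowest share was 63.7%. That library also had the most reads with no feature (21.2%) and the highest somatic marker sum given below (519 CPM). Levels are CPM, gene reads scaled to library size with TMM factors, which do not correct for gene length, so they are compared between libraries and not between genes. As a sum, 8 oocyte markers were abundant in every library, with most of the reads in zar1 and ddx4. Some members were not abundant: in Pachón 100_300um sycp3 had 1, 4 and 2 reads and figla 30, 43 and 19. The summed level of the 8 was 1875 to 2451 CPM in Pachón 100_300um and 3733 to 4710 CPM in Pachón 40_100um. It was 1545 to 2103 CPM in surface 100_300um and 2624 to 2994 CPM in surface 40_100um. Markers of other ovarian cells were present at low levels that differed between the groups. The summed level of all somatic markers was 145, 202 and 129 CPM in Pachón 100_300um and 151, 146 and 190 CPM in Pachón 40_100um, against 519, 255 and 189 CPM in surface 100_300um and 56.3, 84.3 and 65.3 CPM in surface 40_100um. The Pachón sizes thus overlapped, and the surface sizes did not. In bulk libraries, fewer cells of a type and less RNA per cell cannot be told apart.

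**Figure D1:**
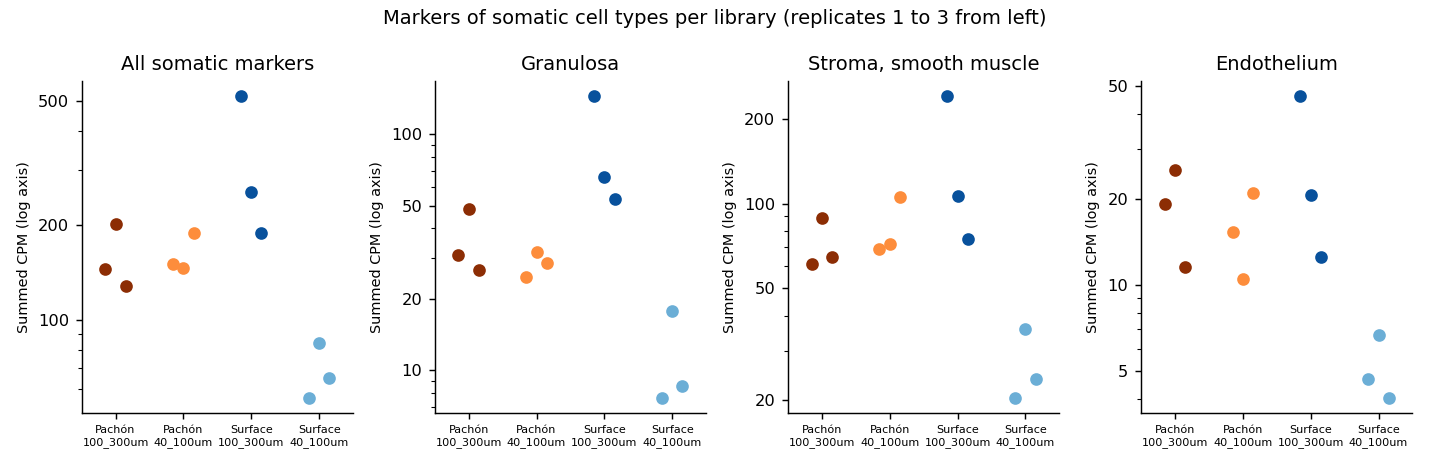
Summed level (CPM, log axis) of marker genes of somatic cell types in each of the 12 libraries; each point is 1 library. Over all somatic markers the Pachón 100_300um libraries (129 to 202 CPM) and the Pachón 40_100um libraries (146 to 190 CPM) overlap, while the surface 100_300um libraries (189 to 519 CPM) lie above the surface 40_100um libraries (56.3 to 84.3 CPM).

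Each population changed over the step. In Pachón oocytes 3846 of 15417 tested genes (24.9%) differed between 100_300um and 40_100um, 2128 higher (13.8%) and 1718 lower (11.1%). In surface oocytes 1685 genes (10.9%) differed, 1251 higher (8.11%) and 434 lower (2.82%). Scaling by library totals moved the median change of all genes to 0.28 in Pachón and 0.19 in surface oocytes, from near 0, and gave 3607 higher and 567 lower genes in Pachón and 1882 higher and 77 lower genes in surface oocytes. The counts also rested on single libraries. Pachón calls fell to 1721, 2301 and 1598 without Pachón 100_300um replicate 2, Pachón 100_300um replicate 3 and Pachón 40_100um replicate 1, and surface calls to 720, 295 and 604 without surface 100_300um replicate 2, surface 40_100um replicate 1 and surface 40_100um replicate 3. With the replicate number of each population as a block, 6360 genes (41.3%) were called in Pachón and 4749 (30.8%) in surface oocytes.

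The steps themselves were then compared gene by gene, which is the test of the difference and does not follow from the counts above. In the fit of 4 group means, 0 of 15417 genes passed an adjusted p of 0.05 (0%; edgeR quasi-likelihood test, Benjamini-Hochberg), while 1974 genes (12.8%) had an unadjusted p under 0.05. The lowest adjusted p was 0.0539, shared by 4 genes: abat, gsdf, pgam1a and ENSAMXG00000029173, which has no symbol. DESeq2's Wald test on the same groups called 261 genes (1.69%), 64 higher (0.415%) and 197 lower (1.28%), with 2004 (13%) at an unadjusted p under 0.05. Same-numbered libraries of both sizes of a population deviated together. With the replicate number of each population as a block, 851 genes (5.52%) passed. Of these, 361 had a higher Pachón step (2.34%) and 490 a lower one (3.18%). With each replicate number shared as a block across both populations, 0 genes passed, and 2534 had an unadjusted p under 0.05. The block named below is the one within each population. In counts simulated with a level for each replicate pair, 15.2% of the genes called with the block were unchanged, above the threshold of 0.05, against 0% without it. The calls with the block are thus less certain than their adjusted p states. There the fit without the block recovered 2% of 2-fold and 44% of 4-fold differences, and the fit with it 28% and 64%. The 0 calls without the block therefore do not show equal steps. Leaving out 1 replicate pair at a time gave between 80 and 1319 calls with the block, namely 80, 185 and 226 without Pachón replicates 1, 2 and 3, and 1042, 1319 and 440 without surface replicates 1, 2 and 3. In the same order, 79, 172, 211, 674, 727 and 376 of the 851 genes were still called. Scaling by library totals gave 548 higher and 422 lower genes. With the block and the summed somatic markers as a covariate, 9 genes were called, and 2 of them were among the 851. The marker sum holds some of the genes reported below (fshr, gsdf, amh, lhcgr, hsd17b1, cyp19a1a, star, cyp17a1, col1a1a, dcn, cdh5 and cd74a). These are then adjusted in part for their own levels. Ptgs2a and pgam1a, which are outside the sum, were not called with the covariate. The covariate also left fewer residual degrees of freedom than the 4 of the block alone. What the lost calls mean was not tested.

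**Figure D2:**
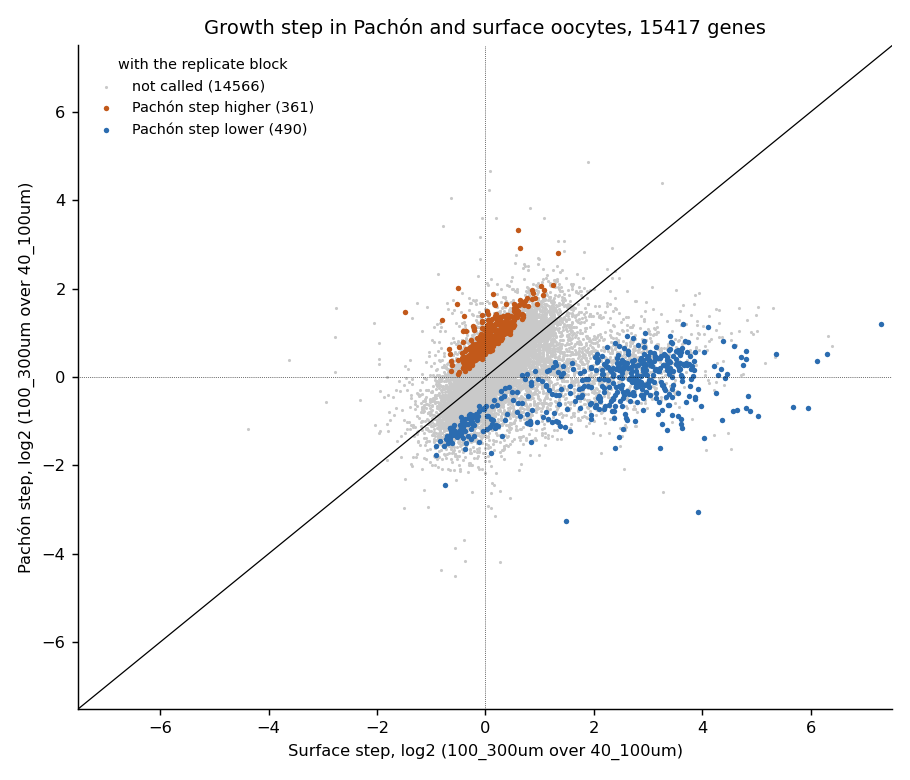
Surface step (horizontal) against Pachón step (vertical) in log2 for 15417 genes; each point is 1 gene and the diagonal marks equal steps. Of the 851 genes called with the replicate block, the 361 with a higher Pachón step lie near the vertical axis above 0, and most of the 490 with a lower Pachón step lie to the right, with a surface rise and a Pachón step near 0.

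The 2 directions had different shapes, given here as a description since the test chose these genes. Among the 490 genes with a lower Pachón step, the surface step was positive in 412, with a median of 2.47, and the Pachón step was positive in 186, with a median of -0.22. These genes were low expressed, with a median level of 3.00 log2 CPM against 4.30 for all tested genes. At 40_100um their median population difference (Pachón over surface, log2) was 1.65, and at 100_300um -0.64. Among the 361 genes with a higher Pachón step, the Pachón step was positive in 361, with a median of 0.87, and the surface step was positive in 214, with a median of 0.06. Their median population difference was -0.96 at 40_100um and -0.15 at 100_300um, and their median level was 5.79 log2 CPM.

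Many granulosa cell genes had a lower Pachón step. Of 35 tested granulosa genes, 13 had a lower and 0 a higher Pachón step with the block, beside 3.18% and 2.34% of all genes. Without the block 0 passed, and 25 were lower at an unadjusted p under 0.05, where 12.8% of all genes differed in either direction. The list's median step was 0.17 in Pachón and 2.44 in surface oocytes, and the median difference between the steps was -2.29, against -0.015 for all genes. In surface oocytes 20 of the 35 rose over the step and 0 fell, and in Pachón oocytes 0 rose and 0 fell. Over all genes 8.11% rose in surface and 13.8% in Pachón oocytes. The granulosa markers, which are members of this list and no separate evidence, had summed levels of 26.6 to 48.4 CPM in Pachón 100_300um and 24.8 to 31.8 CPM in Pachón 40_100um, against 53.5 to 145 CPM in surface 100_300um and 7.68 to 17.9 CPM in surface 40_100um. Without the replicate pairs Pachón 1, 2 and 3 and surface 1, 2 and 3, the lower calls numbered 2, 4, 2, 13, 21 and 7. They numbered 0 with the somatic markers as a covariate, a sum that holds granulosa genes itself.

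Gsdf encodes a TGF beta family factor of the gonadal supporting cells. It had 3.48, 3.01 and 2.74 CPM in Pachón 100_300um and 4.64, 5.18 and 4.86 CPM in Pachón 40_100um, against 22.0, 12 and 14.5 CPM in surface 100_300um and 3.84, 2.36 and 3.07 CPM in surface 40_100um. The surface 100_300um libraries were above all the others. The difference between the steps was -3.05 (SE 0.45, adjusted p = 0.0539, and 0.00202 with the block), and the call with the block held in each of 6 fits that left out 1 replicate pair. The follicle-stimulating hormone receptor fshr had 4.13, 6.74 and 3.07 CPM in Pachón 100_300um and 2.86, 3.89 and 3.24 CPM in Pachón 40_100um, against 9.13, 7.37 and 6.37 CPM in surface 100_300um and 0.284, 1.12 and 0.162 CPM in surface 40_100um. Here the surface 40_100um libraries, with only 2, 9 and 1 reads, were below all the others, and the Pachón sizes overlapped. The difference between the steps was -3.28 (SE 0.74, adjusted p = 0.136, and 0.0112 with the block), called in 4 of those 6 fits.

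**Figure D3:**
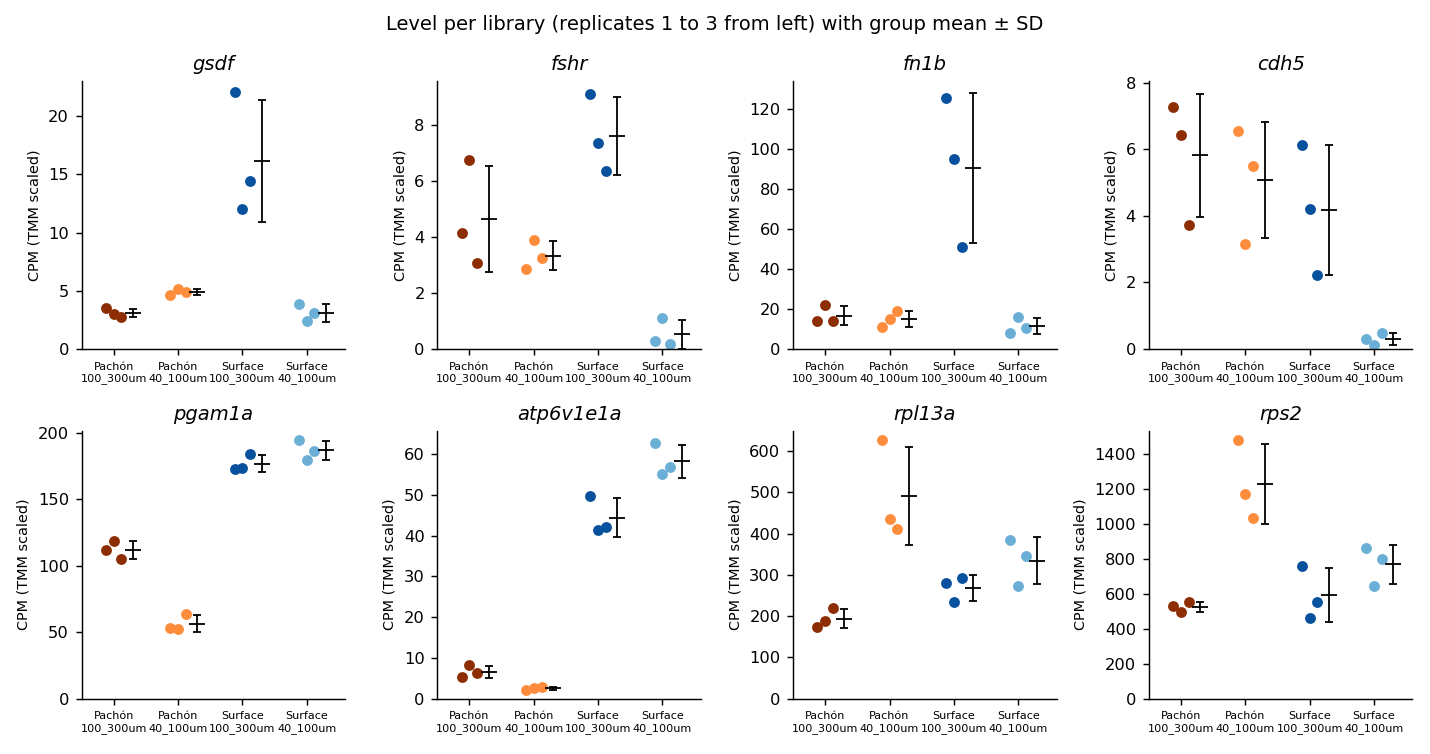
Level (CPM, TMM scaled) of 8 genes in each library, with the mean and SD of each group of 3 beside the points. In the top row gsdf and fn1b are high only in surface 100_300um, and fshr and cdh5 are low in surface 40_100um; in the bottom row pgam1a and atp6v1e1a are lowest in Pachón 40_100um, where rpl13a and rps2 are highest.

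Ptgs2a, which makes prostaglandins in the ovulating follicle and in inflammation, averaged 6.68 ± 1.59 CPM in Pachón 100_300um and 5.91 ± 1.18 CPM in Pachón 40_100um, against 35.5 ± 22.4 CPM in surface 100_300um and 3.40 ± 1.94 CPM in surface 40_100um (SD, n = 3 each). Its steps differed by -3.18 (SE 0.78, adjusted p = 0.162, and 0.00073 with the block). The activin subunit inhbb averaged 10.8 ± 4.68 and 7.33 ± 4.11 CPM in Pachón 100_300um and 40_100um, against 5.83 ± 3.09 and 0.444 ± 0.378 CPM in surface 100_300um and 40_100um (SD, n = 3 each). This gave a step difference of -3.04 (SE 0.85, adjusted p = 0.191, and 0.0167 with the block), called in 3 of the 6 fits that left out a pair. For amh, the anti-Müllerian hormone, the steps differed by -1.94 (SE 0.89, adjusted p = 0.386, and 0.177 with the block). Foxl2a, a granulosa transcription factor, had at most 5 reads in any of the 12 libraries and was not tested.

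Steroid synthesis genes rose in surface oocytes in 6 of 15 cases (1 fell), and in Pachón oocytes in 1 case, beside 8.11% and 13.8% of all genes. With the block 2 of the 15 had a lower Pachón step and 0 a higher one, beside 3.18% and 2.34% of all genes. One was cyp17a1, which makes androgens, at 6.63, 8.51 and 4.05 CPM in Pachón 100_300um and 3.27, 2.22 and 3.24 CPM in Pachón 40_100um, against 11.2, 3.61 and 4.85 CPM in surface 100_300um and 0.142, 0.744 and 0.162 CPM in surface 40_100um. Its surface sizes did not overlap, nor did its Pachón sizes, but surface 40_100um held only 1, 6 and 1 reads. The steps differed by -2.98 (SE 0.84, adjusted p = 0.195, and 0.0451 with the block), called in 1 of the 6 fits that left out a pair. The other was nr5a1a, a nuclear receptor that drives steroid enzymes (-2.22, SE 0.62, adjusted p = 0.193, and 0.0269 with the block), called in 2 of the 6. The count of 2 lower genes was 0 without any 1 Pachón pair or surface pair 3. Scaling by library totals with the block gave 1 lower and 2 higher genes in this list. The aromatase cyp19a1a averaged 5.63 ± 3.15 and 3.22 ± 0.798 CPM in Pachón 100_300um and 40_100um, against 17.5 ± 8.27 and 1.43 ± 1.67 CPM in surface 100_300um and 40_100um (SD, n = 3 each). Its difference of -2.75 (SE 0.94) missed the threshold, with an adjusted p = 0.257, and 0.0804 with the block. So did those of hsd17b1, which activates oestrogens and androgens (-2.40, SE 0.99, adjusted p = 0.342, and 0.342 with the block), and of lhcgr, which binds luteinising hormone (-2.22, SE 0.90, adjusted p = 0.333, and 0.0737 with the block). Star, which carries cholesterol into mitochondria, had 19, 18 and 4 reads in Pachón 100_300um and 8, 1 and 5 reads in Pachón 40_100um, against 14, 13 and 18 reads in surface 100_300um and 0, 1 and 0 reads in surface 40_100um. Its adjusted p was 0.249, and 0.097 with the block.

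A hormone receptor and a growth factor of the follicle had contrasting levels. The oestrogen receptor esr1 had 4.35, 4.56 and 3.72 CPM in Pachón 100_300um and 1.77, 2.96 and 3.72 CPM in Pachón 40_100um, against 12.1, 4.91 and 4.05 CPM in surface 100_300um and 0.284, 0.248 and 0.162 CPM in surface 40_100um, where each library held few reads. For this gene the step difference was -4.23 (SE 0.77, adjusted p = 0.104, and 0.00536 with the block), called in all 6 fits that left out a pair. Igf3, a fish gonadal insulin-like growth factor, averaged 14.7 ± 2.81 and 19.3 ± 3.66 CPM in Pachón 100_300um and 40_100um, against 2.93 ± 1.43 and 1.58 ± 0.798 CPM in surface 100_300um and 40_100um (SD, n = 3 each). It was higher in Pachón at both sizes, and its steps differed by -1.26 (SE 0.56), which missed the threshold (adjusted p = 0.373, and 0.169 with the block).

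Connective tissue and vessel genes included further lower calls. Of 28 tested stroma and smooth muscle genes, 6 had a lower and 0 a higher Pachón step with the block, beside 3.18% and 2.34% of all genes. The list's median step was -0.0022 in Pachón and 2.06 in surface oocytes. The 6 calls became 0, 4, 1, 8, 13 and 4 without the replicate pairs Pachón 1, 2 and 3 and surface 1, 2 and 3. The summed stroma markers were 61.2 to 88.9 CPM in Pachón 100_300um and 68.9 to 105 CPM in Pachón 40_100um, against 74.6 to 241 CPM in surface 100_300um and 20.5 to 36 CPM in surface 40_100um. Fn1b, a fibronectin of the extracellular matrix, had 13.8, 22.0 and 14.1 CPM in Pachón 100_300um and 10.9, 15.0 and 19.1 CPM in Pachón 40_100um, against 126, 94.8 and 51.1 CPM in surface 100_300um and 8.11, 15.9 and 10.5 CPM in surface 40_100um. Only the surface 100_300um libraries stood apart, and the steps differed by -2.81 (SE 0.50, adjusted p = 0.104, and 0.0191 with the block). The differences were -2.67 for the type I collagen chain col1a1a (SE 0.52, adjusted p = 0.116, and 0.0244 with the block), -3.33 for the proteoglycan decorin, dcn (SE 0.82, adjusted p = 0.158, and 0.0258 with the block), and -2.48 for the matrix glycoprotein sparc (SE 0.66, adjusted p = 0.185, and 0.0331 with the block). In surface 40_100um dcn had only 3, 4 and 3 reads. The calls of fn1b, col1a1a, dcn and sparc held in 4, 3, 4 and 2 of the 6 fits that left out a pair. Among 13 endothelial genes 2 were called lower with the block, beside 3.18% of all genes, and 0, 1 and 0 without Pachón pairs 1, 2 and 3. The cadherin of vessel walls, cdh5, averaged 5.81 ± 1.86 and 5.07 ± 1.74 CPM in Pachón 100_300um and 40_100um, against 4.18 ± 1.95 and 0.298 ± 0.181 CPM in surface 100_300um and 40_100um (SD, n = 3 each). Surface 40_100um held only 2, 1 and 3 reads of cdh5. The step difference was -3.59 (SE 0.78, adjusted p = 0.126, and 0.0156 with the block), called in 4 of the 6 fits that left out a pair.

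Some immune genes also had a lower Pachón step. Of 25 inflammation genes 6 had a lower Pachón step with the block and 0 a higher one, beside 3.18% and 2.34% of all genes. The list's median step was -0.043 in Pachón and 1.32 in surface oocytes. The 6 became 3, 3, 3, 5, 8 and 4 without the replicate pairs Pachón 1, 2 and 3 and surface 1, 2 and 3. Of 11 genes of macrophages and granulocytes, 2 had a lower Pachón step with the block, beside the same 3.18% of all genes. Socs3a, a feedback inhibitor of cytokine signalling, had 8.70, 11.4 and 8.10 CPM in Pachón 100_300um and 8.87, 5.37 and 8.42 CPM in Pachón 40_100um, against 36, 32.8 and 45.2 CPM in surface 100_300um and 5.41, 5.70 and 9.37 CPM in surface 40_100um. The 3 surface 100_300um libraries were alike and above the other 9. The steps differed by -2.17 (SE 0.39, adjusted p = 0.104, and 0.00357 with the block). The antigen presentation chaperone cd74a averaged 11.7 ± 4.91 and 13.7 ± 2.69 CPM in Pachón 100_300um and 40_100um, against 23.5 ± 13.0 and 2.83 ± 0.945 CPM in surface 100_300um and 40_100um (SD, n = 3 each). Its steps differed by -3.26 (SE 0.64, adjusted p = 0.116, and 0.00073 with the block). For myd88, the adaptor of Toll-like receptors, the steps differed by -3.33 (SE 0.68, adjusted p = 0.116, and 0.0051 with the block). These 3 calls held in each of the 6 fits that left out a pair. The markers of macrophages and granulocytes summed to 16.1 to 24.9 CPM in Pachón 100_300um and 18.6 to 20.7 CPM in Pachón 40_100um, against 36.9 to 64.7 CPM in surface 100_300um and 13.1 to 23.3 CPM in surface 40_100um. The part of somatic RNA in these results was not tested beyond the covariate, with which the step differences of gsdf, cd74a and ptgs2a were -2.77 (SE 0.75), -2.26 (SE 0.63) and -2.27 (SE 0.68) with the block, and none of the 3 was called; gsdf and cd74a are in that sum.

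Plasma protein genes, normally made in the liver, had a median step difference of -3.19 over 12 tested genes (-2.46 with the block, and -0.66 with the block and without surface pair 1). With or without the block 0 members were called. Without it 2 were lower at an unadjusted p under 0.05, where 12.8% of all genes differed in either direction. Angptl4, a secreted inhibitor of lipoprotein lipase, averaged 29.0 ± 7.05 and 31.2 ± 6.33 CPM in Pachón 100_300um and 40_100um, against 43.6 ± 23.6 and 4.55 ± 2.14 CPM in surface 100_300um and 40_100um (SD, n = 3 each). This gave a step difference of -3.35 (SE 0.57, adjusted p = 0.104, and 0.0277 with the block). In insulin and IGF signalling, 2 of 39 genes had a higher and 3 a lower Pachón step with the block, beside 2.34% and 3.18% of all genes, and the lower calls were 0, 1 and 0 without Pachón pairs 1, 2 and 3. The lower ones included the insulin receptor substrate IRS2 (-2.85, SE 0.65, adjusted p = 0.136, and 0.0156 with the block) and the IGF binding protein igfbp5b (-2.57, SE 0.65, adjusted p = 0.171, and 0.0474 with the block). The calls of angptl4, IRS2 and igfbp5b each held in 2 of the 6 fits that left out a pair.

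In a few genes the steps ran in opposite directions or differed tightly. Abat, which breaks down the transmitter GABA, had 27.0, 25.4 and 22.0 CPM in Pachón 100_300um and 51.3, 53.8 and 45.2 CPM in Pachón 40_100um, against 48.0, 34.4 and 33.5 CPM in surface 100_300um and 18.5, 15.6 and 26.0 CPM in surface 40_100um. It fell over the Pachón step by 1.01 (SE 0.20, adjusted p = 0.00476) and rose over the surface step by 0.95 (SE 0.21, adjusted p = 0.0155), without overlap in either population. The steps differed by -1.96 (SE 0.29, adjusted p = 0.0539, and 0.00155 with the block). Clstn1, a calsyntenin of membrane traffic, averaged 91.7 ± 9.01 and 73.1 ± 6.47 CPM in Pachón 100_300um and 40_100um, against 73.2 ± 14.3 and 24.3 ± 2.40 CPM in surface 100_300um and 40_100um (SD, n = 3 each). For this gene the step difference was -1.26 (SE 0.22, adjusted p = 0.104, and 0.00357 with the block).

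Several genes with a higher Pachón step had their lowest levels in Pachón 40_100um. Pgam1a, a glycolytic mutase, had 112, 118 and 105 CPM in Pachón 100_300um and 53.3, 52.2 and 63.8 CPM in Pachón 40_100um, against 172, 174 and 184 CPM in surface 100_300um and 194, 180 and 186 CPM in surface 40_100um. The Pachón sizes were apart and the surface sizes overlapped. The steps differed by 1.06 (SE 0.15, adjusted p = 0.0539, and 0.00343 with the block). Atp6v1e1a, a subunit of the proton pump that acidifies endosomes and lysosomes, had 5.22, 8.20 and 6.24 CPM in Pachón 100_300um and 2.18, 2.59 and 2.75 CPM in Pachón 40_100um, against 49.8, 41.3 and 42.2 CPM in surface 100_300um and 62.7, 55.1 and 56.9 CPM in surface 40_100um. It was far lower in Pachón at both sizes, and its steps differed by 1.78 (SE 0.28, adjusted p = 0.0649, and 0.00343 with the block). Plekha1a, which binds a phosphoinositide made by PI3 kinase, had 38.2, 38.7 and 38.8 CPM in Pachón 100_300um and 15.3, 13.1 and 18.6 CPM in Pachón 40_100um, against 51.9, 49.7 and 49.6 CPM in surface 100_300um and 45.2, 51.3 and 49.3 CPM in surface 40_100um. The Pachón 40_100um libraries were below the other 9, and the steps differed by 1.24 (SE 0.20, adjusted p = 0.0765, and 0.00357 with the block).

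Other genes of this shape had varied roles. Hprt1l, named for a purine salvage enzyme, averaged 30.7 ± 1.71 and 14.2 ± 1.22 CPM in Pachón 100_300um and 40_100um, against 32.8 ± 2.69 and 34.3 ± 2.59 CPM in surface 100_300um and 40_100um (SD, n = 3 each). The step difference was 1.17 (SE 0.20, adjusted p = 0.104, and 0.0052 with the block). The polarity kinase MARK2 averaged 49.7 ± 6.40 and 23.0 ± 1.83 CPM in Pachón 100_300um and 40_100um, against 81.8 ± 4.99 and 75.0 ± 4.04 CPM in surface 100_300um and 40_100um (SD, n = 3 each). The protein disulphide isomerase PDIA6, which folds secreted proteins, averaged 97.0 ± 7.89 and 45.2 ± 10.1 CPM in Pachón 100_300um and 40_100um, against 162 ± 26.1 and 161 ± 20.2 CPM in surface 100_300um and 40_100um (SD, n = 3 each). The step differences were 0.99 for MARK2 (SE 0.18, adjusted p = 0.104, and 0.00748 with the block) and 1.09 for PDIA6 (SE 0.24, adjusted p = 0.136, and 0.00357 with the block). The calls of pgam1a, atp6v1e1a, plekha1a, hprt1l, MARK2 and PDIA6 with the block held in each of the 6 fits that left out a pair. With the somatic markers as a covariate none of the 6 was called, and their step differences were 1.12, 1.95, 1.68, 1.21, 0.71 and 1.16 in the same order.

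Dipk2ab and pth1r had low levels in Pachón 40_100um, and tmem161b was also lowest there. Dipk2ab had 2.94, 7.47 and 4.38 CPM in Pachón 100_300um and 0.273, 0.370 and 0.809 CPM in Pachón 40_100um, against 11.6, 26.4 and 24.4 CPM in surface 100_300um and 13.4, 13.6 and 14.4 CPM in surface 40_100um, and its steps differed by 2.73 (SE 0.65, adjusted p = 0.141, and 0.0135 with the block). The parathyroid hormone receptor pth1r averaged 9.77 ± 4.02 and 1.29 ± 0.853 CPM in Pachón 100_300um and 40_100um, against 8.02 ± 2.36 and 5.15 ± 0.880 CPM in surface 100_300um and 40_100um (SD, n = 3 each). Its steps differed by 2.27 (SE 0.64, adjusted p = 0.196, and 0.0135 with the block). Tmem161b, a membrane protein, had 34.3, 46.7 and 49.7 CPM in Pachón 100_300um and 12.4, 10.7 and 18.9 CPM in Pachón 40_100um, against 75.7, 104 and 102 CPM in surface 100_300um and 69.7, 94.7 and 84.2 CPM in surface 40_100um. This gave a step difference of 1.45 (SE 0.31, adjusted p = 0.124, and 0.00283 with the block). The calls of dipk2ab, pth1r and tmem161b held in 4, 4 and 6 of the 6 fits that left out a pair.

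Signalling and growth genes appeared among the higher calls in small numbers. Pik3r1, the regulatory subunit of PI3 kinase, rose over the step in both populations with the block, by 1.65 (adjusted p = 2.42e-06) in Pachón and 0.72 (adjusted p = 0.000296) in surface oocytes, and the steps differed by 0.93 (SE 0.15, adjusted p = 0.00545) with the block and 0.92 (SE 0.35, adjusted p = 0.298) without. For the catalytic subunit PIK3CB the difference was 0.73 (SE 0.15, adjusted p = 0.0166) with the block and 0.72 (SE 0.24, adjusted p = 0.246) without. The PIK3CB call held in 3 of the 6 fits that left out a pair. The heat shock factor hsf2 differed by 1.02 (SE 0.17, adjusted p = 0.00644) with the block and 0.99 (SE 0.37, adjusted p = 0.292) without. Of 46 cell cycle genes 4 were higher and 0 lower with the block, among them the mitotic kinase cdk1 (0.77, SE 0.16, adjusted p = 0.0178) and the replication helicase subunits mcm2 (0.55, SE 0.13, adjusted p = 0.0291) and mcm5 (0.76, SE 0.17, adjusted p = 0.0211). Their adjusted p without the block were 0.257, 0.208 and 0.286, and the list's median difference was 0.04. The 4 calls became 0, 1 and 0 without Pachón pairs 1, 2 and 3, and the calls of cdk1, mcm2 and mcm5 held in 3, 1 and 4 of the 6 fits that left out a pair. Of 45 genes of yolk uptake and processing 4 were higher and 0 lower, including atp6v1e1a and the recycling endosome GTPase rab11a (0.76, SE 0.21, adjusted p = 0.0439 with the block, and 0.183 without), whose call held in 1 of the 6. The list's 4 calls became 1, 1 and 1 without Pachón pairs 1, 2 and 3. The kinesin kif3b, a motor of vesicle and ciliary transport, differed by 0.85 (SE 0.22, adjusted p = 0.0344) with the block and 0.84 (SE 0.24, adjusted p = 0.195) without. Its call held in 2 of the 6 fits. Each of these list counts rests on 4 genes or fewer and is read against the 2.34% of all genes called higher.

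**Figure D4:**
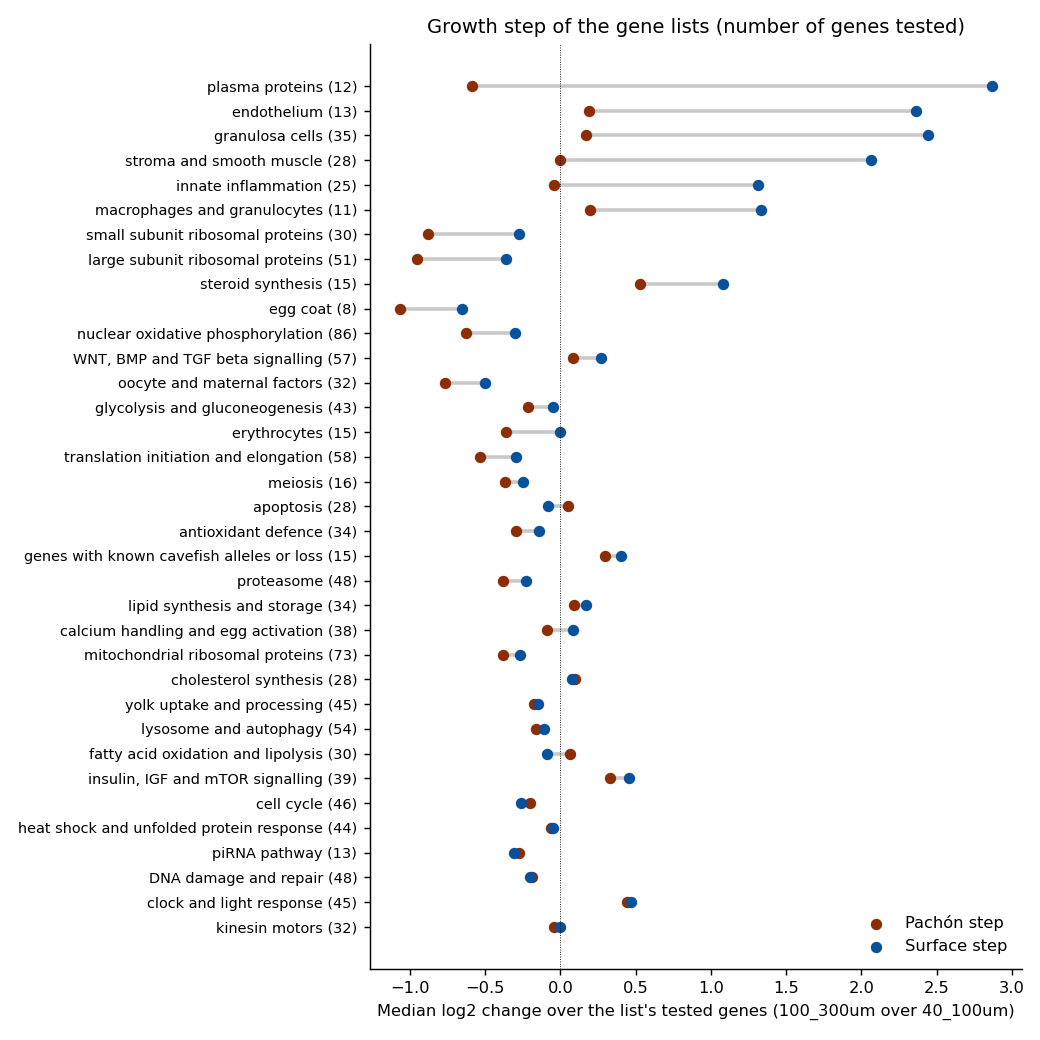
Median log2 change over the growth step of the tested genes of each list with 5 or more of them, for Pachón and surface oocytes, ordered by the difference. The endothelium, granulosa, stroma, inflammation and macrophage lists lie near 0 in Pachón and above 1 in surface oocytes, plasma proteins lie at -0.59 in Pachón and 2.87 in surface oocytes, and the ribosomal protein lists lie below 0 in both, further down in Pachón.

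Ribosomal protein genes had lower Pachón steps of another shape: the median step was below 0 in both populations, and further below 0 in Pachón. In Pachón oocytes 45 of 51 large subunit and 28 of 30 small subunit genes fell over the step, beside 11.1% of all genes. In surface oocytes 1 and 2 of them fell, beside 2.82% of all genes. With the block 46 and 30 fell in Pachón and 17 and 11 in surface oocytes, where 41.3% and 30.8% of all genes changed in either direction. The median step of the large subunit was -0.95 in Pachón and -0.36 in surface oocytes, and that of the small subunit -0.88 in Pachón and -0.27 in surface oocytes. With the block 14 of 51 large subunit genes and 9 of 30 small subunit genes had a lower Pachón step and 0 a higher one, beside 3.18% and 2.34% of all genes. Without the block 0 passed (22 and 16 lower at an unadjusted p under 0.05, where 12.8% of all genes differed in either direction). The 14 became 0, 2, 9, 17, 18 and 6, and the 9 became 0, 2, 7, 11, 9 and 2, without the replicate pairs Pachón 1, 2 and 3 and surface 1, 2 and 3. With the somatic covariate the counts were 0, and the medians were -0.54 and -0.52, beside -0.59 and -0.58 with the block alone.

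Rpl13a had 174, 187 and 221 CPM in Pachón 100_300um and 627, 435 and 410 CPM in Pachón 40_100um, against 280, 233 and 292 CPM in surface 100_300um and 384, 274 and 347 CPM in surface 40_100um. Pachón had the highest and the lowest libraries, and the surface sizes overlapped. For this gene the step difference was -1.02 (SE 0.25, adjusted p = 0.153, and 0.0200 with the block). The difference was -0.84 for rplp1, of the ribosome's stalk (SE 0.22, adjusted p = 0.183, and 0.00803 with the block), -0.80 for rpl3 (SE 0.39, adjusted p = 0.413, and 0.0118 with the block) and -0.85 for rps2 (SE 0.26, adjusted p = 0.218, and 0.0138 with the block). The calls of rpl13a, rplp1, rpl3 and rps2 held in 3, 5, 4 and 4 of the 6 fits that left out a pair.

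Lists of translation factors, oxidative phosphorylation and mitochondrial ribosomes had few calls. Of 58 genes of translation initiation and elongation, 32 fell over the step in Pachón and 5 in surface oocytes, beside 11.1% and 2.82% of all genes. With the block 5 had a lower and 2 a higher Pachón step, beside 3.18% and 2.34% of all genes. The lower calls were 0 without any 1 Pachón pair. The initiation factor eif3f averaged 70.9 ± 1.41 and 116 ± 16.3 CPM in Pachón 100_300um and 40_100um, against 60.9 ± 5.43 and 61.7 ± 8.99 CPM in surface 100_300um and 40_100um (SD, n = 3 each), with a difference of -0.69 (SE 0.20, adjusted p = 0.195, and 0.0349 with the block). Eif6, which acts in ribosome assembly, differed by -0.65 (SE 0.20, adjusted p = 0.218, and 0.0232 with the block). In the opposite direction eif2s2, a subunit of the factor that brings the initiator tRNA, had 8.70, 19.1 and 9.53 CPM in Pachón 100_300um and 3.82, 5.37 and 2.59 CPM in Pachón 40_100um, against 18.1, 18.6 and 18.2 CPM in surface 100_300um and 16.1, 15.7 and 17.1 CPM in surface 40_100um (1.50, SE 0.45, adjusted p = 0.210, and 0.0160 with the block). The calls of eif3f, eif6 and eif2s2 held in 2, 2 and 4 of the 6 fits that left out a pair. Of 86 nuclear genes of oxidative phosphorylation, 50 fell in Pachón and 5 in surface oocytes, beside the same 11.1% and 2.82% of all genes. The list's median difference between the steps was -0.30, against -0.015 for all genes, with 78 of the 86 below 0 and 8 above. Of the 86, 2 had a lower Pachón step with the block, below the 3.18% of all genes. One was the complex III subunit uqcrq (-0.76, SE 0.22, adjusted p = 0.202, and 0.0349 with the block), called in 2 of those 6 fits. Of 73 mitochondrial ribosomal protein genes 0 were called, with a median difference of -0.077. Without the block, at an unadjusted p under 0.05, 12 oxidative phosphorylation genes were lower and 0 higher, and 1 mitochondrial ribosomal protein gene was higher and 0 lower. At that threshold 12.8% of all genes differed in either direction.

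Some oocyte genes fell over the step in each population. Of 32 oocyte and maternal factor genes, 20 fell in Pachón and 11 in surface oocytes, beside 11.1% and 2.82% of all genes, and 0 rose. The list's median difference between the steps was -0.21, against -0.015 for all genes, with 28 of the 32 below 0 and 4 above. With the block 1 of the 32 had a lower Pachón step, near the 3.18% of all genes. That gene was cpeb1a, which controls the translation of stored RNA, at 6.52, 7.05 and 7.34 CPM in Pachón 100_300um and 15.3, 16.1 and 11.7 CPM in Pachón 40_100um, against 4.96, 1.44 and 2.22 CPM in surface 100_300um and 2.42, 0.992 and 1.45 CPM in surface 40_100um. It was higher in every Pachón library than in any surface library, and its steps differed by -1.87 (SE 0.61, adjusted p = 0.236, and 0.0258 with the block), called in 1 of the 6 fits that left out a pair. Of 8 egg coat genes 7 fell in Pachón and 4 in surface oocytes, and 2 had a lower Pachón step with the block, beside the same shares of all genes. The step difference was below 0 in all 8, with a median of -0.43. Zp2l1 averaged 393 ± 94.4 and 1344 ± 315 CPM in Pachón 100_300um and 40_100um, against 551 ± 129 and 1038 ± 521 CPM in surface 100_300um and 40_100um (SD, n = 3 each). The step difference was -0.86 (SE 0.50, adjusted p = 0.516, and 0.0269 with the block), and those of zpax1 by -0.49 (SE 0.30, adjusted p = 0.542, and 0.0471 with the block), called in 2 and 1 of the 6 fits that left out a pair. Without any 1 Pachón pair the list's count was 0.

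The best known oocyte genes did not pass in either fit. Zar1, needed for maternal RNA in the oocyte, had 993, 678 and 865 CPM in Pachón 100_300um and 2599, 1976 and 1932 CPM in Pachón 40_100um, against 900, 584 and 770 CPM in surface 100_300um and 1221, 1216 and 1537 CPM in surface 40_100um. It fell by 1.36 in Pachón (adjusted p = 0.00164) and by 0.82 in surface oocytes (adjusted p = 0.020). The steps differed by -0.54 (SE 0.27, 95% interval -1.16 to 0.08, adjusted p = 0.424, and 0.0808 with the block). For npm2b, a nucleoplasmin of the egg nucleus, the difference was -0.47 (SE 0.27, 95% interval -1.09 to 0.16, adjusted p = 0.513, and 0.105 with the block). The secreted growth factors gdf9 and bmp15 differed by -0.21 (SE 0.26, 95% interval -0.80 to 0.39, adjusted p = 0.817) and 0.23 (SE 0.27, 95% interval -0.39 to 0.86, adjusted p = 0.793). The germline helicase ddx4 differed by 0.06 (SE 0.16, 95% interval -0.31 to 0.42, adjusted p = 0.937), the oocyte transcription factor figla by -0.34 (SE 0.55, adjusted p = 0.870) and the clock repressor per2 by 0.15 (SE 0.37, adjusted p = 0.927). These intervals leave room for differences of up to about the sizes given, so equal steps were not shown.

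The calls of the remaining lists are read against the 2.34% of all genes called higher and 3.18% called lower. With the block, proteasome genes had 1 higher and 0 lower call of 48, DNA damage and repair genes 1 and 1 of 48, clock and light response genes 1 and 1 of 45, genes of heat shock and the unfolded protein response 3 and 4 of 44, and lysosome and autophagy genes 0 and 1 of 54. Meiosis (16 genes), the piRNA pathway (13), erythrocytes (15), lymphocytes (2), cholesterol synthesis (28) and genes with known cavefish alleles or loss (15) had 0 calls. At an unadjusted p under 0.05 without the block 0, 0, 1, 0, 1 and 1 of them differed, beside 12.8% of all genes. WNT, BMP and TGF beta signalling had 5 lower and 0 higher calls of 57. The 5 became 0, 1 and 0 without Pachón pairs 1, 2 and 3. Without these pairs the heat shock list's 3 higher calls became 2, 2 and 2, and its 4 lower calls 0, 0 and 1. Calcium handling had 1 higher and 3 lower calls of 38, lipid synthesis 2 and 1 of 34, and fatty acid oxidation 2 and 1 of 30. Glycolysis had 1 and 1 of 43, apoptosis 1 and 1 of 28, kinesins 1 and 1 of 32, and antioxidant defence 0 and 1 of 34.

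Data from other libraries were then set beside these genes. At 300um, in libraries the step comparison did not use, 3648 of 14530 genes (25.1%) differed between Pachón and surface fish, 1824 higher (12.6%) and 1824 lower (12.6%) in Pachón. Of the genes with a higher Pachón step, 360 were tested at 300um, and 149 of them (41.4%) were lower and 9 (2.5%) higher in Pachón, with a median of -0.44. Of the genes with a lower Pachón step, 450 were tested, and 74 (16.4%) were higher and 32 (7.11%) lower, with a median of 0.058. Large subunit ribosomal protein genes were higher in Pachón at 300um in 32 of 51 cases and lower in 0, with a median of 0.53, and small subunit genes were higher in 13 of 30 cases and lower in 0, with a median of 0.52. Of 32 granulosa genes tested at 300um 2 were higher and 4 lower, with a median of 0.095.

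**Figure D5:**
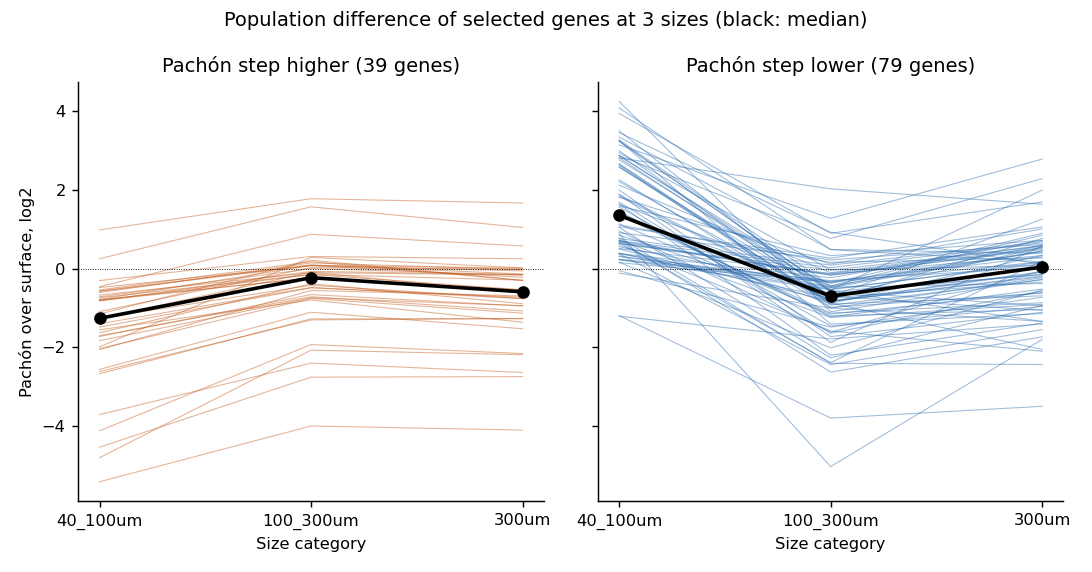
Population difference (Pachón over surface, log2) at 40_100um, 100_300um and 300um for genes called with the replicate block that the selection described in the processing account picked; each thin line is 1 gene and the black line the median. The median of the 39 genes with a higher Pachón step was -1.26, -0.23 and -0.59 at the 3 sizes, and that of the 79 genes with a lower Pachón step was 1.35, -0.70 and 0.038.

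Single genes showed both outcomes at 300um, where levels were scaled over those libraries alone and are not set against the smaller sizes. Pgam1a had 94.5, 107 and 97.7 CPM in Pachón 300um against 180, 202 and 195 CPM in surface 300um, and was lower in Pachón by -0.95 (adjusted p = 0.000929). Atp6v1e1a was lower by -2.74 (adjusted p = 0.000121), MARK2 by -1.08 (adjusted p = 0.00073) and tmem161b by -1.53 (adjusted p = 0.000382). Gsdf had 3.25, 4.22 and 4.77 CPM in Pachón 300um against 3.65, 4.17 and 2.85 CPM in surface 300um, which overlap (0.19, adjusted p = 0.728). Fshr was higher in Pachón 300um by 1.25 (adjusted p = 0.0455), and rpl3 by 1.05 (adjusted p = 0.0051).

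The step in Molino cavefish was placed beside the other 2, in a fit of 18 libraries. Molino oocytes changed in 5413 of 15946 genes (33.9%) between 100_300um and 40_100um. The genes with a lower Pachón step had a median Molino step of 1.26, beside -0.22 in Pachón and 2.47 in surface oocytes. These genes were chosen for unlike Pachón and surface steps, so a Molino median between the 2 can follow from that choice. Of the 490, 151 rose in Molino (30.8%, against 18.1% of all tested genes) and 67 fell (13.7%, against 16.6%). The genes with a higher Pachón step, chosen in the same way, had a median Molino step of 0.40, beside 0.87 in Pachón and 0.06 in surface oocytes. Of the 361, 162 rose in Molino (44.9%) and 18 fell (4.99%). Granulosa genes had a median Molino step of 1.63 and the large subunit ribosomal protein genes of -0.51. Gsdf rose by 1.63 in Molino (adjusted p = 0.0154), fshr by 3.88 (adjusted p = 0.0013) and socs3a by 2.02 (adjusted p = 0.0103). The Pachón step differed from the Molino step in 170 genes (1.07%), and in 1015 (6.37%) with the block. The Molino step differed from the surface step in 0 genes (0%) without the block (2147 at an unadjusted p under 0.05) and 456 (2.86%) with it. These comparisons share libraries with the one described above and are given side by side only.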

How the data were processed

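The authors deposited read counts per gene for 36 bulk libraries, and per the submitters' processing notes they used STAR 2.7.10b and RSEM. Their genome build: not given in the sources used here. A table of CPM values that the authors deposited was not used. The 12 libraries of the 4 groups held 27420 genes, of which 16752 have a symbol. Reads without a gene (14.9 to 21.2% with no feature, 7.38 to 10.4% multimapping, 6.56 to 10.2% unmapped and 0.311 to 0.449% ambiguous) stayed out of library sizes and tests.

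Counts were tested with edgeR 4.0.16 in R 4.3.3 (TMM scaling, filterByExpr with a minimum count of 10 and a minimum total of 15, robust quasi-likelihood F test, Benjamini-Hochberg over all 15417 genes, threshold 0.05), with 1 mean per group and no block. DESeq2 1.42.0 was an alternative. Each SE was computed from the log2 change and the F value of its test. Intervals of 95% use this SE and 8 residual degrees of freedom. The p-values come from the moderated test, which adds prior degrees of freedom, so the intervals do not match them exactly. The scripts were tested on simulated data.

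Same-numbered libraries of both sizes deviated together within each population over 11654 genes (r = 0.553, 0.524 and 0.526 in Pachón, and 0.457, 0.557 and 0.737 in surface fish), while other numbers gave -0.0364 to -0.482. A group's deviations from its own mean sum to 0, so the negative values follow in part from the positive ones and are no separate evidence. The labels do not say what a number marks. The block fit was therefore given beside the results. It has 4 residual degrees of freedom, and its dispersion was 0.0177, against 0.0736 without the block.

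The comparison, gene lists and fixed genes were chosen with earlier results of these data known. The naming rule (the 15 largest changes in each direction among called genes with a symbol and a mean of at least 2 log2 CPM, at most 5 called genes per list, and a set of fixed genes) named only the fixed genes in the fit without the block. After the values were seen it was also applied to the fit with the block, and the 15 genes with the smallest p without the block were added. The text names a part of these genes.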

Additional observations from a re-analysis of the deposited data

Results flagged for a closer look

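The Pachón and surface steps differed in 851 genes with the replicate number of each population as a block (edgeR quasi-likelihood test). This compares with 0 without a block, 0 with the replicate block across populations and 261 with DESeq2. Of the genes named whatever their result, fshr differed by -3.40 (SE 0.64, adjusted p = 0.0112) and gsdf by -3.03 (SE 0.38, adjusted p = 0.00202) with the block. All 3 are listed because the difference between the populations' steps passed its own test in that fit. In surface 40_100um fshr had only 2, 9 and 1 reads. With the block and the summed somatic markers as a covariate, the differences were -1.57 for fshr (SE 1.25) and -2.77 for gsdf (SE 0.75), and neither was called. Both genes are members of that sum, so each was adjusted in part for its own level. What the lost calls mean was not tested.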

How the results depend on the processing

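The difference between the steps was called in 0 genes without a block, in 12 with no filter on low counts and in 261 with DESeq2. It was called in 8 genes in the fit of 18 libraries and in 2 in the fit of 36 libraries. The replicate block within each population gave 851, and the replicate block across populations gave 0. Leaving out 1 library gave 0 to 67, the most without surface 100_300um replicate 3. With the replicate block the count was 1747 with no filter and 9 with the somatic marker covariate (2 of them among the 851), and 80 to 1319 when 1 replicate pair was left out (80, 185 and 226 without Pachón pairs 1, 2 and 3, and 1319 and 440 without surface pairs 2 and 3). The Pachón step gave 1535 calls with 36 libraries, 6360 with the replicate block and 1598 to 4363 with 1 library left out. The surface step gave 2606 with DESeq2, 714 with 36 libraries, 4749 with the replicate block, 2904 with the replicate block across populations, 0 with the somatic covariate (1572 at an unadjusted p under 0.05) and 295 to 1953 with 1 library left out. Signs turned, mostly in genes that passed no test. Without the block per2 was -0.059 with the covariate, -0.0080 without surface 100_300um replicate 1 and -0.069 without surface 40_100um replicate 2 (up to 0.46 over such omissions); ddx4 was -0.038 without Pachón 100_300um replicate 1 and -0.0084 without surface 100_300um replicate 2 (up to 0.13). With the covariate bmp15 was -0.76, hsd17b1 1.80, amh 0.18 and cyp19a1a 0.080. With the replicate block per2 was -0.050 and -0.0077 without surface pairs 2 and 3, ddx4 -0.039 and -0.037 without Pachón pair 1 and surface pair 2, and bmp15 -0.026 without surface pair 1. With block and covariate bmp15 was -0.63, star 2.35, cyp17a1 0.63, hsd17b1 3.05, npm2b 0.029, igfbp5b 0.076 and cyp19a1a 0.77. The causes were not tested. The covariate and the surface step cannot be told apart, since the marker sums of the surface sizes do not overlap. Of 50 named genes called with the block, 18 were called in all 6 fits without 1 pair, and 1 was called with the somatic marker covariate. The named genes were picked mostly for large changes or small p and do not stand for the 851. Of all 851, 79 were still called without Pachón pair 1. Depth of 5.95 to 9.35 M reads limits genes under about 1 CPM.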
